A study of Mus musculus with 7 samples.

Results

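The insulin-like growth factor (IGF) ligands and their carriers were followed across 7 mouse tissues as 10 genes chosen by name, of 50160 gene names with values in the deposited expression table. They were the ligands Igf1 and Igf2, the acid-labile subunit Igfals and the binding proteins Igfbp1 to Igfbp7. RNA was sequenced from 3 fat depots, namely visceral (VAT), subcutaneous (SCAT) and brown adipose tissue (BAT), and from skeletal muscle, cortex, kidney and liver. All came from wt mice, 36 weeks old and kept on the NCD diet, whose strain is C57BL/6 in the labels and C57BL/6N in the text of the study. Ribosomal RNA was depleted, the library kit kept strand, and each tissue gave 1 library. The study profiled these tissues to learn whether its noncoding RNAs of interest were enriched in liver. Because no tissue had a replicate, every difference below is a description of these 7 libraries, with no error and no p-value. Values are FPKM, fragments scaled to transcript length and library size, and the fragment counts behind them are unknown.

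IGF-I and IGF-II are small hormones related to insulin that signal through the IGF-I receptor. Most circulating IGF-I is made by the liver under the control of growth hormone. In blood it travels mainly in a complex of the ligand, IGFBP3 or IGFBP5, and the acid-labile subunit, which lengthens its life in the circulation. The binding proteins also act in tissues, where proteases release the ligand from them.

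All 10 genes had values, and 9 of them reached 1 FPKM in any tissue. A gene was called enriched in a tissue when it had 1 FPKM or more there and stood 2 log2 units, or 4-fold, above every other tissue on the log2(FPKM + 0.1) scale. This scale understates differences between low values. By this rule 5 of the 10 genes were enriched in a tissue, while 23.0% of the 19087 gene names with at least 1 FPKM in any tissue were. Igf1, Igfals, Igfbp1 and Igfbp2 were enriched in liver, where the background was 3.81%. Igfbp7 was enriched in kidney, where it was 2.55%. Igfbp4 in liver and Igfbp3 in kidney lay just under the rule, at log2 ratios of 1.97 and 1.95 over the second tissue. Igfals reached 1 FPKM in liver alone, so liver was the single tissue in which it could be called. When the libraries were scaled to equal sums without the 100 highest loci, the ratios of Igfbp1 (1.93) and Igfbp7 (1.90) fell under the rule, and on the annotated strand Igfbp3 in kidney (2.00) passed it. Igfbp3 had lower ratios under other scalings, 1.42 with median ratios and 1.21 with equal sums.

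**Figure D1:**
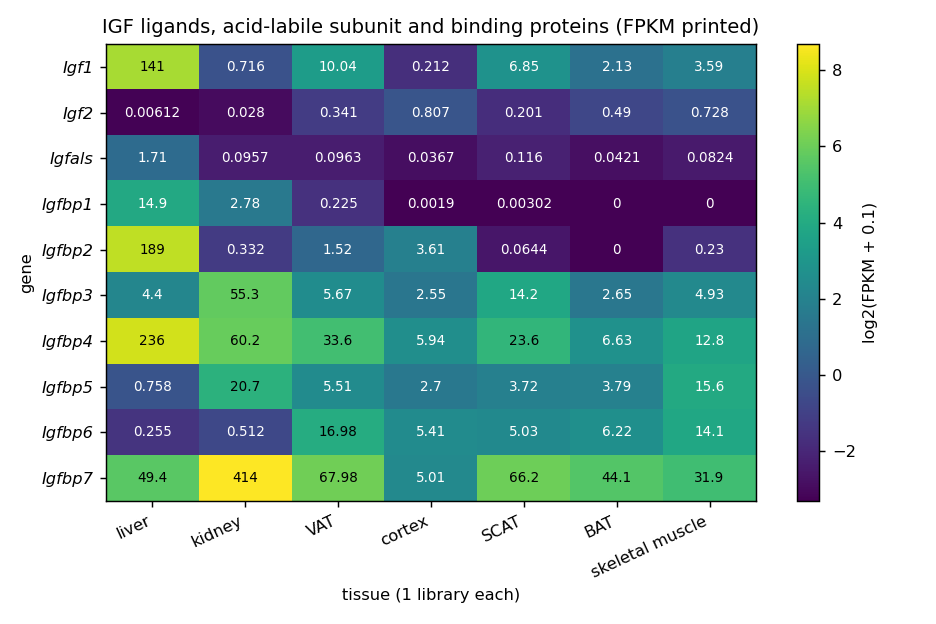
Colour gives log2(FPKM + 0.1) of each gene (rows) in each tissue library (columns), and the printed number is the FPKM. Igf1, Igfals, Igfbp1, Igfbp2 and Igfbp4 had their highest value in liver, and Igfbp3, Igfbp5 and Igfbp7 in kidney.

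The labels of the tissues were held against marker genes. Umod (930 FPKM), Snap25 (215 FPKM), Ucp1 (6552 FPKM) and Myh1 (1175 FPKM) had their highest values in kidney, cortex, BAT and skeletal muscle, so the cortex library was one of brain. Of the 6 hepatocyte markers, Alb and Serpina1b had no usable value. Markers of other tissues stood in both white depots. In VAT, 3 of the 5 epididymis markers exceeded 1 FPKM (Crisp1 1386 FPKM), while Lcn9 and Cst11 were listed at 0. In SCAT all 6 lymphocyte markers (summed 325 FPKM) and all 5 acinar markers of pancreas (summed 101 FPKM) exceeded 1 FPKM, against sums of at most 59.3 and 9.16 in the other tissues. All 6 adipocyte markers also exceeded 1 FPKM in skeletal muscle (summed 448 FPKM). The 3 muscle fibre markers with values all exceeded 1 FPKM in BAT (summed 401 FPKM). The part of these cells in the values of the white depots, skeletal muscle and BAT was not tested. In whole tissue, more cells of a type and more RNA per cell cannot be told apart.

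The table names genes by merged loci and gives no strand, which was read from the order of the list. Read this way, the locus with the highest FPKM lay on the annotated strand for 6 of the 10 genes and opposite to it for Igfbp1, Igfbp2, Igfbp3 and Igfbp5. Among 18441 gene names with at least 1 FPKM and an annotated strand, 21.3% were likewise opposite. For these 4 genes the values of the annotated strand are given beside the highest ones. Marker genes were read by the same locus rule. For some of them, such as Umod, Ucp1 and Myh1, the locus used was likewise opposite to the annotated strand.

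Promoter sequence is shown for 2 of the liver-enriched genes, because liver control of Igfbp1 by insulin and of Igfals by growth hormone is textbook knowledge. All 10 genes matched the RefSeq promoter table, with 16 starts. The bases upstream of each start were searched on both strands for CAAAACA, the core of insulin response sequences, GTTAAT, a half-site of the liver factor HNF1, TTCNNNGAA, the STAT5 site, and TATAAA, the TATA box. Igfbp1 is on the plus strand of GRCm38 at chr11:7197782-7202546, and its upstream window is chr11:7197537-7197786. Igfals is on the plus strand at chr17:24865997-24882010, and the window of the RefSeq start shown is chr17:24877981-24878230. In the lines below, capitals mark the motif matches.
Igfbp1: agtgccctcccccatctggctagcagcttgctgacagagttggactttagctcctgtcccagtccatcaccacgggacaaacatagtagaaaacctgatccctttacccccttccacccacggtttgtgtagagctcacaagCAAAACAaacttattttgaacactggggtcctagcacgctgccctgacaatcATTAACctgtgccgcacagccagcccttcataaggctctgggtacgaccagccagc
Igfals: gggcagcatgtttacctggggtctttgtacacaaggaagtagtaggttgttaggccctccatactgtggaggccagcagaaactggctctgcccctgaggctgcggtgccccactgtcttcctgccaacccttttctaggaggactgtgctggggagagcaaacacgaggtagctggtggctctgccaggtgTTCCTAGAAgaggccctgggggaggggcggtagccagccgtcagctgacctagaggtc
Counted back from the start, the Igfbp1 window held CAAAACA at -108 to -102 and the GTTAAT half-site, read on the other strand, at -56 to -51. The Igfals window held TTCCTAGAA, a match to TTCNNNGAA, at -58 to -50, and 2 of its 3 RefSeq starts had such a match. Igfbp4 held TATAAA at -28 to -23, and Igfbp6 held it on the other strand at -148 to -143. The other 6 genes, among them the liver-enriched Igf1 and Igfbp2, held none of the 4 motifs in these windows. Of 32851 windows of the same length in the RefSeq table, 5.56% held CAAAACA, 6.43% GTTAAT, 7.02% TTCNNNGAA and 12.4% TATAAA. The TTCNNNGAA motif is its own reverse complement, no match overlapped another, and a match is a description of the letters.

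Igf1, the main ligand of postnatal growth, had 141 FPKM in liver, 10.04 in VAT, 6.85 in SCAT, 3.59 in skeletal muscle, 2.13 in BAT, 0.716 in kidney and 0.212 in cortex. Liver stood 3.80 log2 units above VAT, the second tissue. In liver, 97.4% of the expressed gene names had a lower FPKM than Igf1, and in kidney 26.4% did. The adipose depots and muscle therefore stood between liver and the low pair of kidney and cortex, and without replicates the order of neighbouring tissues such as VAT and SCAT cannot be judged. Macrophage markers, which mark another known source of IGF-I, summed to 143 FPKM in SCAT, 124 in VAT, 82.0 in BAT, 78.8 in liver, 69.0 in skeletal muscle, 18.5 in cortex and 15.8 in kidney. Each of the 6 exceeded 1 FPKM in all tissues but kidney (4 of 6) and cortex (5 of 6), and none was at 0. Their part in the Igf1 values was not tested.

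Igf2, the ligand that is highly expressed in the embryo, stayed under 1 FPKM in all 7 libraries. It had 0.807 FPKM in cortex, 0.728 in skeletal muscle, 0.490 in BAT, 0.341 in VAT, 0.201 in SCAT, 0.0280 in kidney and 0.00612 in liver. The tissues with the most Igf1 and the most Igf2 therefore differed, and liver had the lowest Igf2 value. In the adult brain Igf2 is known from meninges and choroid plexus, and in the cortex library the choroid markers Folr1 and Kl had 1.90 and 0.745 FPKM. The whole list of 6 such markers summed to 6.70 FPKM there, with 3 of them at 1 FPKM or more and none at 0, and to between 13.2 and 262 FPKM in the other tissues. Folr1 and Kl are also kidney genes, with 147 and 35.1 FPKM there. Ttr, listed here as a hepatocyte marker but also a main transcript of choroid plexus, had 195 FPKM in cortex, second to liver. The part of these cells in the Igf2 value of cortex was not tested.

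Igfals, which encodes the acid-labile subunit, had 1.71 FPKM in liver, and its other values ran from 0.0367 FPKM in cortex to 0.116 FPKM in SCAT. Its log2 ratio of liver over SCAT was 3.07 with the pseudocount of 0.1 and 1.28 with a pseudocount of 1, which is below the 4-fold rule. Only 42.1% of expressed gene names were lower than Igfals in liver. The merged locus of Igfals spans 4 other annotated protein-coding genes, among them Hagh, whose own locus had 176 FPKM in liver.

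Igfbp1, the binding protein that insulin represses in hepatocytes, had 14.9 FPKM in liver, 2.78 in kidney and 0.225 in VAT. Cortex and SCAT had 0.00190 and 0.00302 FPKM, and BAT and skeletal muscle were listed at 0. The liver value stood 2.38 log2 units above kidney. Its locus on the annotated strand gave the same picture, with 13.6 FPKM in liver, 3.09 in kidney and 0.164 in VAT. Kidney was thus the second tissue on either strand, with 18.6% of the liver FPKM at the locus used.

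Igfbp2, a binding protein of liver and brain, had 189 FPKM in liver and 3.61 in cortex, followed by 1.52 in VAT, 0.332 in kidney, 0.230 in skeletal muscle and 0.0644 in SCAT, and was listed at 0 in BAT. With a log2 ratio of 5.67 of liver over cortex it had the widest gap between first and second tissue of the 10 genes. The locus on the annotated strand had 138 FPKM in liver, 3.63 in cortex and 0.0611 in BAT. A further locus under the name had 77.0 FPKM in liver.

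Igfbp2 and Igfbp1 in VAT were set beside hepatocyte markers, because some hepatocyte genes had values there as well. Igfbp2 in VAT had 0.800% of its liver FPKM and Igfbp1 1.51%. The markers Apoa1, Cps1 and Ttr had 0.701%, 0.874% and 0.850% of their liver FPKM in VAT, and Cyp2e1, which fat cells also express, 6.41%. In SCAT, Apoa1, Cps1 and Ttr had 0.0113%, 0.0140% and 0.0124%, and Cyp2e1 1.48%. Igfbp1 and Igfbp2 had 0.0202% and 0.0340% in SCAT, and Igf1, Igfals and Igfbp4 4.86%, 6.76% and 10.02%. The 4 hepatocyte markers with values all exceeded 1 FPKM in VAT, and their sum ran from 11.7 FPKM in skeletal muscle to 378 in kidney among the tissues other than liver. The share of Igf1 in VAT was 7.12%, and that of Igfbp4 14.2%. Igfals had 5.63%. On the annotated strand the VAT shares were 1.12% for Igfbp2 and 1.21% for Igfbp1, and summed over all loci under the name they were 0.971% and 1.37%. The Igfbp2 share thus lay within the range of Apoa1, Cps1 and Ttr at the locus used and above it under the other readings. The shares of Igf1, Igfals, Igfbp1 and Igfbp4 lay above that range, and that of Cyp2e1 did too. The part of hepatocyte RNA in VAT was not tested.

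**Figure D2:**
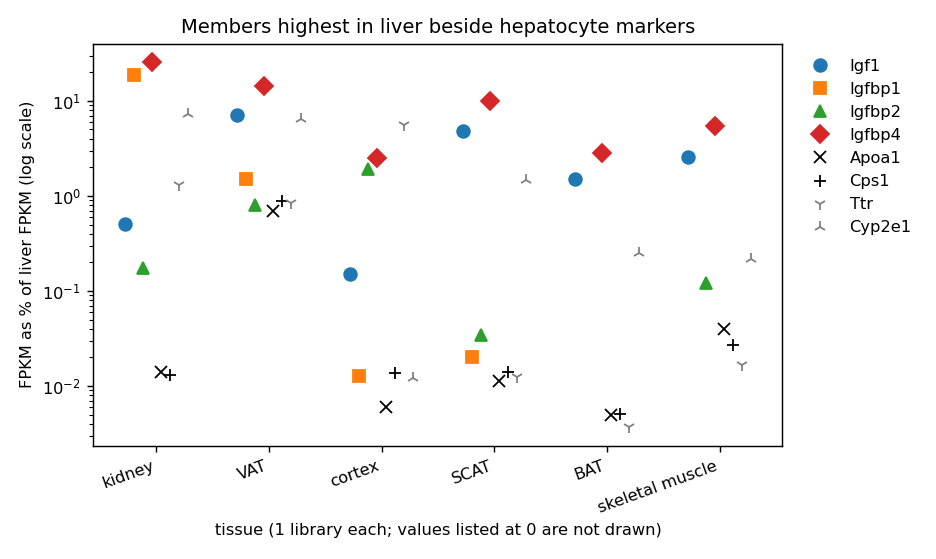
Points give the FPKM of each gene as a percent of its liver FPKM (log axis) in the 6 other tissues, coloured for Igf1, Igfbp1, Igfbp2 and Igfbp4 and black or grey for 4 hepatocyte markers. In VAT, Igfbp2 at the locus used (0.800%) sat between Apoa1 (0.701%) and Cps1 (0.874%), and Igf1 (7.12%) and Igfbp4 (14.2%) sat above them.

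Igfbp4, an inhibitor of IGF action that the protease PAPP-A cleaves, was the member with the highest FPKM in liver at the locus used, at 236. Kidney had 60.2 FPKM, VAT 33.6, SCAT 23.6, skeletal muscle 12.8, BAT 6.63 and cortex 5.94. It exceeded 1 FPKM in every tissue, as did Igfbp3 and Igfbp7. These were 3 of 10 genes, and 46.5% of expressed gene names had at least 1 FPKM in every tissue.

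Igfbp3, the main carrier of IGF-I in blood, had 55.3 FPKM in kidney and 14.2 in SCAT. VAT had 5.67 FPKM, skeletal muscle 4.93, liver 4.40, BAT 2.65 and cortex 2.55. The locus on the annotated strand had 35.3 FPKM in kidney, 8.73 in SCAT and 2.31 in liver, and on both strands kidney was first and SCAT second. Liver thus held the highest FPKM of Igf1 and of Igfals, but kidney that of the binding protein that joins them. The ratio of the locus used to that of the annotated strand lay between 1.42 and 1.91 in all 7 tissues.

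Igfbp5, which binds extracellular matrix, had 20.7 FPKM in kidney and 15.6 in skeletal muscle, a log2 ratio of 0.41. VAT had 5.51 FPKM, BAT 3.79, SCAT 3.72, cortex 2.70 and liver 0.758. On the annotated strand its values were lower, at 4.07 FPKM in kidney, 2.68 in skeletal muscle and 0.169 in liver, with ratios between 4.47 and 6.00. The order of the highest pair and the lowest tissue was the same on both strands, while the level of Igfbp5 relative to other genes depended on the strand.

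Igfbp6, which prefers IGF-II as a ligand, had 17.0 FPKM in VAT and 14.1 in skeletal muscle, a log2 ratio of 0.27 that became 1.06 with median ratio scaling and 1.23 with equal sums. BAT had 6.22 FPKM, cortex 5.41, SCAT 5.03, kidney 0.512 and liver 0.255. Liver and kidney were thus the lowest tissues for Igfbp6. Stromal fibroblast markers, 5 of 6 with values, summed to 430 FPKM in skeletal muscle, 425 in VAT, 275 in SCAT, 140 in BAT, 123 in liver, 27.8 in kidney and 19.9 in cortex, and none was at 0. Mesothelium markers exceeded 1 FPKM for 4 of 5 genes in VAT and summed to 16.8 FPKM there, against at most 4.50 elsewhere. The other mesothelium marker, Msln, was enriched in cortex, with 4.06 FPKM against 0.560 in VAT. The part of fibroblasts and mesothelium in the Igfbp6 values was not tested.

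Igfbp7, a low-affinity binding protein of vessel walls, had 414 FPKM in kidney, 68.0 in VAT, 66.2 in SCAT, 49.4 in liver, 44.1 in BAT, 31.9 in skeletal muscle and 5.01 in cortex. Kidney stood 2.60 log2 units above VAT. Among all gene names Igfbp7 had rank 74 in kidney. Endothelial markers summed to 80.9 FPKM in kidney and to between 28.3 in cortex and 566 in BAT, with Egfl7 alone at 486 in BAT, and none of the 6 was at 0. Without Egfl7 the other 5 summed to 57.8 FPKM in kidney, 79.96 in BAT, 55.03 in VAT and 52.6 in SCAT. Skeletal muscle had 46.05 FPKM, liver 28.6 and cortex 5.79. Of these 5 markers only Emcn was highest in kidney, with 31.9 FPKM. Pecam1, Cdh5 and Tek were highest in BAT and Kdr in liver. In kidney they had 8.01, 2.79, 7.48 and 7.65 FPKM. The part of endothelium in the Igfbp7 values was not tested.

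Of the binding proteins, 4 form 2 neighbouring pairs in the genome. Igfbp1 and Igfbp3 (chr11:7206086-7213923, minus strand) face each other across 3.54 kb, and Igfbp1 was highest in liver and Igfbp3 in kidney. Igfbp2 (chr1:72824503-72852474, plus strand) and Igfbp5 (chr1:72857932-72874884, minus strand) are 5.46 kb apart, and Igfbp2 had 189 FPKM in liver where Igfbp5 had 0.758. In kidney this order was turned, with 0.332 and 20.7 FPKM. Across the 7 tissues Pearson's r of log2(FPKM + 0.1) was 0.35 for the first pair and -0.68 for the second, as a description over 7 libraries.

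Because FPKM is scaled to length, the 7 binding proteins can be set beside each other within a library. Their summed FPKM was 554 in kidney, 495 in liver, 131 in VAT, 113 in SCAT, 79.6 in skeletal muscle, 63.4 in BAT and 25.2 in cortex. With all loci under a name added, liver (726 FPKM) came before kidney (596 FPKM). In liver, Igfbp4 made 47.7% of the sum and Igfbp2 38.3%. In kidney Igfbp7 made 74.7%, and in BAT, SCAT, VAT and skeletal muscle it led with 69.5%, 58.6%, 51.7% and 40.1%. In cortex the shares lay closer together, with Igfbp4 first at 23.5%, Igfbp6 at 21.4%, Igfbp7 at 19.9% and Igfbp2 at 14.3%. In skeletal muscle Igfbp5 and Igfbp6 followed with 19.6% and 17.7%. When all loci under a name were summed, Igfbp2 led in liver with 55.7% over Igfbp4 with 32.5%, and in cortex with 27.9%, so the leading gene in these 2 tissues depends on how loci are combined. On the annotated strand alone, Igfbp5 made 4.14% in skeletal muscle.

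**Figure D3:**
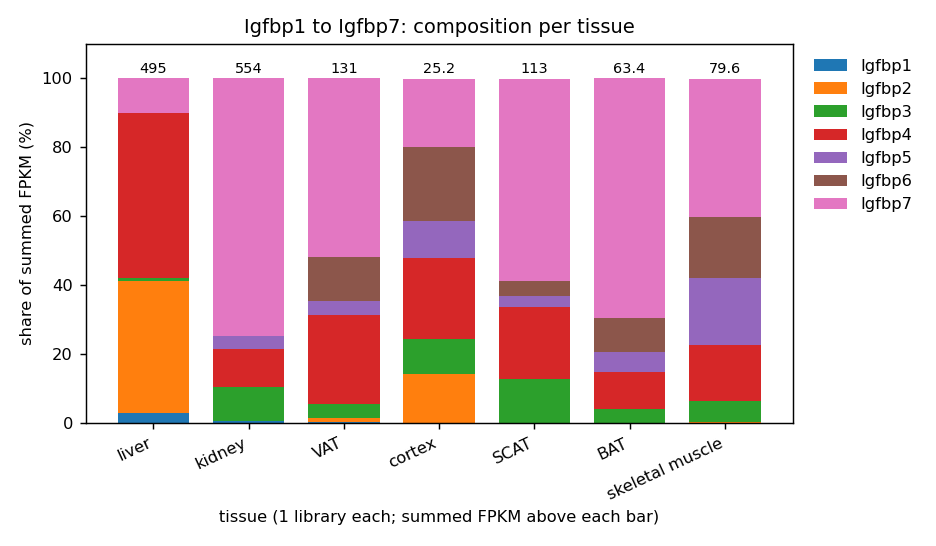
Bars give the percent that each of Igfbp1 to Igfbp7 made of their summed FPKM in each tissue library, with the summed FPKM above the bar. Igfbp4 and Igfbp2 filled most of the liver bar (47.7% and 38.3%), and Igfbp7 made 74.7% of the kidney bar.

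Binding-protein transcripts exceeded those of Igf1 in every library, by very different factors. The summed FPKM of Igfbp1 to Igfbp7 was 3.51 times that of Igf1 in liver, 13.1 in VAT, 16.5 in SCAT, 22.2 in skeletal muscle, 29.8 in BAT, 119 in cortex and 773 in kidney. Kidney and liver had similar sums (554 and 495 FPKM) but Igf1 values of 0.716 and 141 FPKM. With Igf1 and Igf2 added together as the ligands, the ratio was 24.8 in cortex, near BAT (24.2), and 744 in kidney. These are ratios of transcripts and say nothing of protein.

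Liver was the highest tissue for 5 of the 10 genes (16.3% of expressed gene names) and kidney for 3 (10.4%). Cortex was the lowest tissue for 5, namely Igf1, Igfals, Igfbp3, Igfbp4 and Igfbp7 (23.1%). Between liver and kidney, Igf1, Igfals, Igfbp1 and Igfbp2 were at least 4-fold higher in liver, where 7.15% of expressed gene names were. In the other direction Igfbp3, Igfbp5 and Igfbp7 were at least 4-fold higher in kidney, where 8.13% were. The log2 differences of liver minus kidney ran from 8.78 for Igfbp2 and 7.43 for Igf1 to -3.62 for Igfbp3 and -4.60 for Igfbp5.

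The fat depots differed less. VAT was 4-fold above SCAT for Igfbp2 alone (4.76% of expressed gene names), the gene whose VAT value was set beside hepatocyte markers above, and SCAT above VAT for none of the 10 (3.96%). Igfbp6 was 17.0 FPKM in VAT and 5.03 in SCAT, a log2 difference of 1.73, and Igfbp3 was 5.67 in VAT and 14.2 in SCAT, a difference of -1.31. Against BAT, VAT was 4-fold higher for Igf1, Igfbp2 and Igfbp4 (5.99%) and SCAT for Igfbp3 (5.95%). None of the 10 was 4-fold higher in BAT than in VAT (7.46%) or SCAT (11.3%). Over the 21 pairs of tissues, the members were 4-fold apart in 93 of 210 combinations of gene and pair, or 44.3%, against 20.95% for expressed gene names. The pairs share libraries, so these are not independent counts.

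The median log2 ratio of the highest over the second tissue was 2.18 for the 10 genes and 0.72 for expressed gene names. The tissue specificity index tau, which is 0 for an even gene and 1 for a gene of a single tissue, ran from 0.41 for Igfbp7 to 0.92 for Igfals. Igfbp1 (0.91), Igfbp2 (0.90) and Igf1 (0.74) were next, Igf2 had 0.59, Igfbp3 0.56, Igfbp5 and Igfbp6 0.48 and Igfbp4 0.47, and the median over expressed gene names was 0.44. Igfbp7 was therefore enriched in kidney by the 4-fold rule but low in tau, since its other 6 tissues all had 5.01 FPKM or more.

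Around the family, 34 genes of the pathway were followed from lists, of which 25 reached 1 FPKM in any tissue. For 8 of the 34 (Insrr, Pappa, Pappa2, Stc1, Stc2, Igfbpl1, Esm1 and H19) the locus used lay opposite to the annotated strand. The names Cyr61, Ctgf, Nov, Wisp1, Wisp2 and Wisp3 were not in the annotation, so their strand could not be judged. Of the 25 expressed genes, 6 (24.00%) were enriched in a tissue, a share close to the 23.0% of all expressed gene names, and none of them in liver, where the background of 3.81% is small for a list of this size. Among the receptors, Igf1r, through which IGF-I signals, had 16.4 FPKM in kidney, 3.61 in skeletal muscle, 3.17 in cortex, 3.03 in VAT, 1.42 in SCAT, 0.959 in BAT and 0.387 in liver. Igf1r was enriched in kidney and lowest in liver, the order opposite to that of Igf1 in this pair. Igf2r, which takes up and degrades IGF-II, ranged from 3.81 FPKM in cortex to 22.8 in kidney, and the insulin receptor Insr from 3.21 in cortex to 23.1 in liver. Insrr, a receptor relative that senses alkaline pH, had 1.80 FPKM in kidney and was listed at 0 in liver, BAT and skeletal muscle at the locus used, and had 0.758 FPKM in kidney on the annotated strand. The insulin genes Ins1 and Ins2 stayed at or under 0.0870 FPKM in all tissues. In SCAT, where the acinar markers stood, they had 0.0102 and 0.00879 FPKM.

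Of the 6 genes of growth hormone signalling none was enriched in a tissue, with Stat5b in skeletal muscle just under the rule at a log2 ratio of 2.00. With a background of 23.0% and 6 genes, little can be read from this count. The growth hormone receptor Ghr had 188 FPKM in liver, 166 in kidney, 134 in VAT, 80.7 in SCAT, 64.0 in skeletal muscle, 61.8 in BAT and 2.21 in cortex. Liver and kidney thus differed in Ghr by 0.18 log2 units and in Igf1 by 7.43. Stat5b, a mediator of the receptor, had 33.7 FPKM in skeletal muscle and 8.37 in liver, and Stat5a had 11.1 in BAT and 2.97 in liver. Jak2, the kinase of the receptor, was highest in skeletal muscle with 26.7 FPKM, and the feedback inhibitors Socs2 and Cish stayed at or under 3.54 and 2.80 FPKM.

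Of 6 proteases of binding proteins and their inhibitors, 4 reached 1 FPKM and 1 of these 4 was enriched in a tissue (with a background of 23.0%). Adam12, which cleaves IGFBP3 and IGFBP5, had 23.9 FPKM in BAT and at most 1.52 FPKM in the other tissues, and was enriched there. Htra1, a secreted serine protease, had 23.7 FPKM in kidney, 14.9 in cortex, 10.8 in skeletal muscle and 0.305 in liver. Pappa, the protease of IGFBP4, had 1.60 FPKM in kidney and less than 1 elsewhere, with 0.0610 FPKM in liver, where Igfbp4 itself was highest. On its annotated strand Pappa had 0.436 FPKM in kidney and 0.0324 in liver. Pappa2 and the PAPP-A inhibitor Stc2 stayed under 1 FPKM, and the inhibitor Stc1 had 1.93 FPKM in VAT, or 0.703 FPKM on its annotated strand. Pappa and Stc1 thus reached 1 FPKM only at loci opposite to the annotation.

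**Figure D4:**
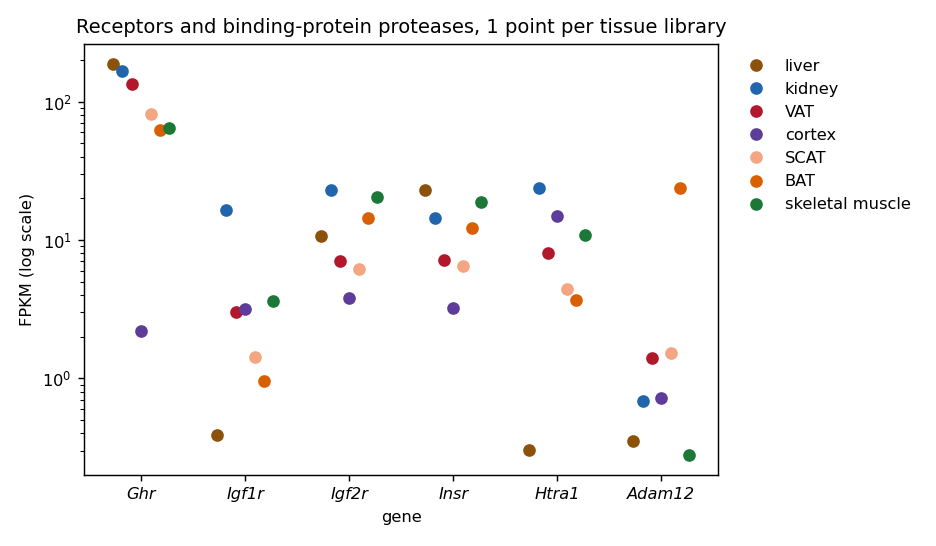
Each point is the FPKM (log axis) of a receptor or protease gene in 1 tissue library, coloured by tissue. Ghr was similar in liver (188) and kidney (166), Igf1r was highest in kidney (16.4) and lowest in liver (0.387), and Adam12 stood apart in BAT (23.9).

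Among 10 secreted proteins related to the binding proteins by sequence, 7 reached 1 FPKM and 2 of these (28.6%) were enriched in a tissue, near the background of 23.0%. The endothelial product Esm1 had 24.6 FPKM in kidney and 2.05 in liver at the locus used, and 1.92 and 0.175 FPKM on the annotated strand, where it was enriched in kidney too. Nov, a matricellular protein also called CCN3, had 20.7 FPKM in cortex and 2.29 in skeletal muscle. Wisp2 (CCN5) had 12.3 FPKM in VAT and 5.95 FPKM in the SCAT library, and Cyr61 (CCN1) 23.4 in skeletal muscle. Igfbpl1 and Wisp3 reached at most 0.171 and 0.116 FPKM.

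For each member the 2 gene names with the most similar profile were listed, by the root mean square (RMS) difference of centred log2 values over the 7 tissues among 16636 gene names. Igfbp4 was closest to Cldn1 (RMS 0.37), a tight junction protein, and Egfr (0.47), the epidermal growth factor receptor. Igfbp6 was closest to Medag (0.46), an adipogenesis gene, and Vit (0.48), Igfbp5 to Plod2 (0.35), a collagen-modifying enzyme, and Tmem252 (0.48), and Igfbp7 to Dab2 (0.48), an adaptor of endocytosis, and Sigirr (0.55). Igf1 was nearest to Vsig4 (0.78), a receptor of Kupffer cells, and Sec16b (0.79), and Igfbp2 was nearest to Cyp4f15 (0.68) and Sec14l2 (0.76). For the members with values near or under the pseudocount in several tissues, and for Igfbp3, the nearest names were mostly predicted genes, as with Igf2 (Ntng2 0.34, Gm26703 0.36), Igfals (AC127596.1 0.17, Gm10030 0.20), Igfbp1 (Gm21049 0.18, Gm26424 0.21) and Igfbp3 (Gm45802 0.26, Tnfsf15 0.33). Among the members themselves, Igfals and Igfbp4 (0.94) and Igfbp3 and Igfbp7 (0.95) were the most alike.

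Loci on the other strand within the same bounds were compared with the members, and some ran along with them while others did not. The locus named Tns4, opposite Igfbp4, had 85.1 FPKM in liver, 19.5 in kidney and 1.97 in cortex, and its ratio to Igfbp4 lay between 0.322 and 0.360 in all 7 tissues. Igf1os, opposite Igf1, had 21.7 FPKM in liver and 0.191 in cortex, with ratios between 0.154 and 0.903. One locus named Soat2 opposite Igfbp6 had 5.99 FPKM in skeletal muscle and 5.30 in VAT, and Gm43261 opposite Igfbp7 had 6.45 in kidney. RMS differences of these loci from their members were 0.06 for Tns4, 0.80 for Igf1os, 0.61 for Soat2 and 0.53 for Gm43261. A further 3 loci named Soat2 opposite Igfbp6 were highest in liver and differed from it by RMS values of 3.06 to 3.47, and Polr2b opposite Igfbp7 differed by 1.80. Opposite Igfals, the loci named Fahd1 with Nubp2 and Meiob differed by 0.68 and 1.32. The cause of the like values was not tested.

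**Figure D5:**
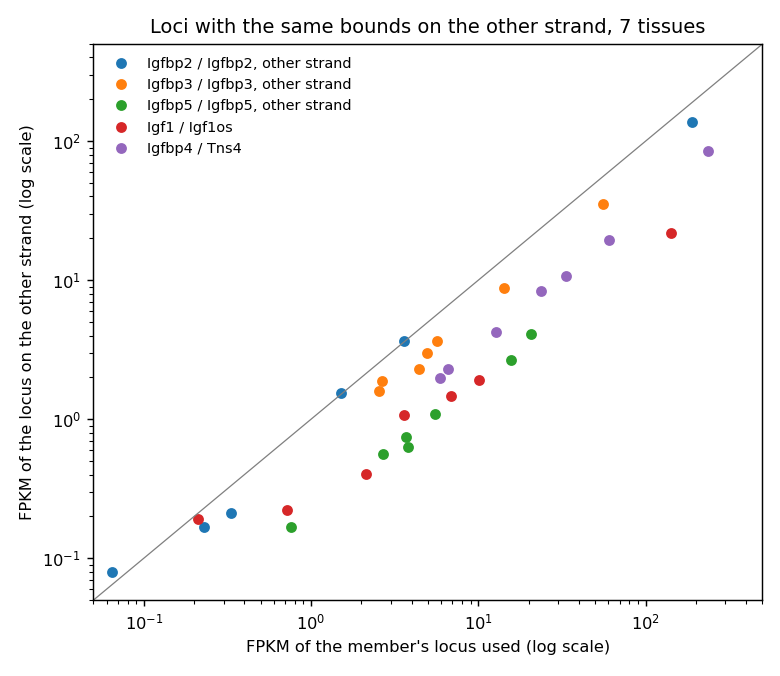
Each point is 1 tissue, with the FPKM of the member's locus used on the x axis and that of a locus with the same bounds on the other strand on the y axis (both log scales), and the grey line marks equality. Points listed at 0 are not drawn. Tns4 ran parallel to Igfbp4 at a ratio of 0.322 to 0.360, and the Igfbp5 loci differed by 4.47-fold to 6.00-fold.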

How the data were processed

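RNA-Seq of 7 tissues, 1 library each, was analysed from the table of cuffdiff. Per the labels and the methods of the study, the authors trimmed reads with flexbar, filtered out reads of ribosomal RNA (Bowtie2 2.2.9), aligned to GRCm38 (mm10) with STAR 2.6.0c, and assembled, merged and compared transcripts with Cufflinks 2.2.1. The authors deposited FPKM per locus and comparison. The library type given to cuffdiff is not given in the sources used here. The authors' fold changes, p-values and calls in the table were not used. Of 94339 loci, the 151 with the status FAIL were left out. LOWDATA zeros were set as missing, and where a name had several loci the one with the highest maximum FPKM was used. None of the 15 loci under the members' names was lost this way.

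Strand was read from the order of loci on each chromosome, by which 75.3% of 61996 pairs of locus and name lay on the annotated strand (GENCODE, GRCm38). Promoters came from RefSeq (GRCm38.p6), 250 bases before each start. With 1 library per tissue no test was run. Depth is unknown, so no interval was given. The members, lists and rules were chosen with earlier results of these data known. Named genes were the members, the fixed lists, the 2 nearest profiles of each member (without loci that share bounds with a member) and markers. Genes and loci named beyond these (Hagh, Tns4, Igf1os, Gm43261, Soat2, Polr2b, Fahd1, Nubp2, Meiob) were added once their values were known. The code of the rule was run on simulated data without noise. The setting fixed the outcome in advance, so it checked the code alone and gave no error rate. Python 3.11.15, pandas 2.3.3 and NumPy 2.4.6 were used. Alternatives covered the pseudocount, minimum, fold, scaling and the choice of loci.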

Additional observations from a re-analysis of the deposited data

How the results depend on the processing

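Of 42 alternative counts, 39 were within 1.5 times the reported ones. With an 8-fold rule 3 members were enriched in any tissue (without Igfbp1 and Igfbp7). Scaling to equal sums without the 100 highest loci also gave 3, with Igfbp1 and Igfbp7 lost. Without VAT and SCAT, 6 members were enriched, with Igfbp3 in kidney added. For the pairs it was added after the data were seen, and 55 combinations of gene and pair were 4-fold apart, since fewer pairs are compared. On the annotated strand alone, added later, 6 members were enriched, Igfbp3 in kidney among them. Igfals was not enriched with a pseudocount of 1 or a minimum of 5 FPKM, and with a 2-fold rule Igfbp3 and Igfbp4 were added.

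Scaling by median ratios moved libraries by -0.38 (skeletal muscle) to 0.49 (SCAT) log2 units, and equal sums by -0.53 to 0.70. The highest tissue of each member was the same in all 70 alternatives of the log2 ratio, and 60 of these were within a factor of 1.5. The leading shares among Igfbp1 to Igfbp7 all stayed within 1.5 times, although the leading gene in liver and cortex differed when loci were summed. By Pearson's r, 7 of the 20 nearest profiles were the same.

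No paired analysis was possible because each tissue has 1 library. Leaving out a replicate was likewise not possible, and the unknown depth limits every value under 1 FPKM.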

Other observations

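Igf2 shares an imprinted domain with H19, a noncoding RNA expressed from the other parental allele. H19 had 207 FPKM in skeletal muscle and 23.6 FPKM in BAT, at most 0.624 FPKM in VAT, SCAT and liver, and was listed at 0 in kidney and cortex. Igf2 had 0.728 FPKM in skeletal muscle, the tissue with the most H19, and 0.807 in cortex, where H19 was listed at 0. Both Igf2 values were under 1 FPKM. Without replicates the order of these tissues for Igf2, a log2 ratio of 0.13, cannot be judged. The H19 locus with these values lay opposite to its annotated strand. On the annotated strand H19 had 63.5 FPKM in skeletal muscle, 5.11 FPKM in BAT and 0.00453 FPKM in cortex. The muscle fibre markers Tnnt3, Mylpf and Myh1 had 307, 81.9 and 12.02 FPKM in BAT, against 9815, 5595 and 1175 FPKM in skeletal muscle. Acta1, Ckm and Myh4 had no usable value. The part of muscle fibres in the H19 value of BAT was not tested. Igf2os, the transcript opposite Igf2, reached at most 0.00563 FPKM. Th, a further neighbour, had 1.50 FPKM in skeletal muscle.

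Of the 3 IGF2 mRNA binding proteins, which bind the Igf2 transcript and other mRNAs, Igf2bp3 exceeded 1 FPKM in every tissue, from 1.59 FPKM in kidney to 3.62 in skeletal muscle. Igf2bp2 was highest in kidney with 2.04 FPKM, and Igf2bp1 stayed at or under 0.787 FPKM.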
